A study of Mus musculus with 9 samples.

Results

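Integrins, laminins and Cd44 are the genes by which a cell holds on to the matrix around it, and they were followed here in cultured mouse neural stem cells in which Phf2 had been lowered. The genes were taken by symbol: integrin α subunits with a number in the symbol, Itgav, Itgal, Itgam, Itgax and Itgae, the integrin β subunits, the laminin α, β and γ chains, and Cd44, the hyaluronan receptor. The 36 genes described, of the 54232 in the count table, are 25 integrin subunits, 10 laminin chains and Cd44. Of the 36, 29 passed the expression filter and were tested, namely 19 integrin subunits, 9 laminin chains and Cd44. The 7 that did not pass were Itga11, Itgal, Itgam, Itgax, Itgb6, Itgb7 and Lamc3, none of which exceeded 0.66 CPM (the count scaled to the library's total count) in any library.

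The cells were primary embryonic neural stem cells of the mouse with the tissue label brain subventricular zone, and no strain or genotype is given in the labels. They were treated with the hairpin RNA sh900 or sh902, both directed against Phf2, a histone lysine demethylase gene of the KDM7 family, or with the non-targeting hairpin shNT. RNA was collected 3 days later. All groups shared the same culture: dishes coated with laminin at 5 µg/mL, and medium with fibroblast growth factor at 10 ng/mL and epidermal growth factor at 20 ng/mL. Each group held 3 libraries, of which 1 title carried no date, 1 the date 30 August and 1 the date 3 September. What the dates mark is not stated, and nothing says that the libraries of a group came from separate cultures or animals, so a p-value here reflects the spread between libraries and that spread may be technical. RNA was measured in bulk, so fewer cells of a type and less RNA per cell cannot be told apart.

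An integrin is a pair of an α and a β subunit that binds matrix outside the cell and is joined to actin inside it by talin, kindlin and the integrin-linked kinase complex. The α subunit largely sets the ligand. Itga3, Itga6 and Itga7 pair with Itgb1 to bind laminins, and Itga6 also pairs with Itgb4. Laminins are trimers of 1 α, 1 β and 1 γ chain that build basement membranes. In the subventricular zone neural stem cells touch laminin of blood vessels and of fractones, and Itga6 with Itgb1 is known as a receptor used there. Itgb1 also pairs with α subunits that bind fibronectin or collagen, so its transcript is not particular to laminin binding.

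RefSeq promoter windows (GRCm38.p6, 250 bases before to 50 after the annotated start, printed along the gene's strand) were matched for 24 of the 36 genes, in 27 windows. Those of 5 genes are shown because the results turn on them: Cd44 and Lamb1, whose calls with the replicate block held in each fit that left out 1 library, Itga3 and Itgb1, the 2 laminin receptor subunits that rose, and Itga2, the integrin that fell. Itga3 has 2 windows, of which the one at the gene's 5′ end is shown. Capitals mark matches, on either strand, to the GC box GGGCGG and to the TEAD motif CATTCC.
Cd44, chr2:102901616-102901915, minus strand: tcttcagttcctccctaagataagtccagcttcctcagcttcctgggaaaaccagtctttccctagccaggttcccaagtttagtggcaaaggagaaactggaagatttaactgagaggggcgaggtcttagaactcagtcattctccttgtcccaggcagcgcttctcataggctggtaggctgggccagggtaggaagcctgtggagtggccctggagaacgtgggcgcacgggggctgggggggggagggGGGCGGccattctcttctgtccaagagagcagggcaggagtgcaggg
Lamb1, chr12:31265043-31265342, plus strand: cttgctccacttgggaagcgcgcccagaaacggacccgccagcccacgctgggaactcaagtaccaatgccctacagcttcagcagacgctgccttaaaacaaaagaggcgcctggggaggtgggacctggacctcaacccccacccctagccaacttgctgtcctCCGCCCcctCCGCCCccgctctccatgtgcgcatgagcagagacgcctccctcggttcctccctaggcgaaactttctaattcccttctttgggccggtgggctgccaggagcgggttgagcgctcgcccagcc
Itga3, chr11:95076665-95076964, minus strand: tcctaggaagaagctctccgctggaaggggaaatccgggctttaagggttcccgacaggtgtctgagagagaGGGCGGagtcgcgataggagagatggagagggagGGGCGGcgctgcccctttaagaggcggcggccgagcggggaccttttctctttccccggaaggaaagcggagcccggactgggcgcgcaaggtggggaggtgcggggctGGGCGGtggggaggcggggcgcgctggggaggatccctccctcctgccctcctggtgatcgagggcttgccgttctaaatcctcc
Itgb1, chr8:128685404-128685703, plus strand: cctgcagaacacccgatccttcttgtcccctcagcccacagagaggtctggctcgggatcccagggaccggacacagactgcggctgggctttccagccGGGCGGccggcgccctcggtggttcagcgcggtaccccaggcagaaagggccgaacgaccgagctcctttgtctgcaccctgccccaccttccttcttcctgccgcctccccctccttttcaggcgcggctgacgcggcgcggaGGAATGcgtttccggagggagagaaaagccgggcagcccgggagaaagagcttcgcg
Itga2, chr13:114932051-114932350, minus strand: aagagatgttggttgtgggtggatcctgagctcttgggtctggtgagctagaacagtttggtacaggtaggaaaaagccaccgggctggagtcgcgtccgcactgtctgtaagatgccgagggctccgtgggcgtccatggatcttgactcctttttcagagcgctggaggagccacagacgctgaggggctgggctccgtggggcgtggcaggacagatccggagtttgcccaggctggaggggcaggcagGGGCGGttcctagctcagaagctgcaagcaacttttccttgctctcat
A GC box was found in 13 of the 27 windows, against 35.7% of 32851 promoter windows of all genes. The AP-1 motif TGANTCA was found in 3 of 27 and in 7.81% of all windows, and the TEAD motif in 3 of 27 and in 14.7% of all. The TATA box letters TATAAA were in 0 of 27 and in 13.6% of all. The windows of the matrix genes had a median GC content of 58.7%, against 52.7% over all windows. The GC box stood in the windows of Itga2 and of Cd44 alike. A match is a description of the letters and not a measured binding site.

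Phf2 stood at 13.5 to 29.2 CPM in the 6 hairpin libraries and at 49.5 to 57.4 CPM in the 3 shNT libraries. Libraries held 23212472 to 32392496 counts, and 17602 genes were tested. In edgeR's quasi-likelihood test without a term for the date label, 0 of the 29 genes were called at an adjusted p under 0.05 in any hairpin comparison, as were 0% of all genes tested. For the mean of both hairpins, 5 of the 29 and 2809 of all genes had an unadjusted p under 0.05 in that fit. DESeq2 without the label called 5 of the 29 higher, where 2.52% of all genes were called higher, and 0 lower, where 1.77% were. These 5 were Itga3, Itga4, Itga8, Lama2 and Lama3. With a term for the date label (the replicate block), edgeR called 13 of the 29 higher, where 6.08% of all genes tested were called higher, and 1 lower, where 5.59% were. In the text that follows, "rose" and "fell" mean called in the blocked fit for the mean of sh900 and sh902 against shNT, unless a single hairpin is named. The block takes the 3 undated libraries as 1 label, although no title ties them to each other, and their deviations from group means correlated at as little as 0.0799. With the 6 dated libraries alone, 0 of the 29 were called. Log2 fold changes are from the blocked fit of all 9 libraries unless another is named, and values listed for a group are in the order undated, 30 August, 3 September.

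Of the 5 laminin receptor subunits, Itga3 and Itgb1 rose with lowered Phf2, while the more abundant α subunits Itga6 and Itga7 were not called in either direction. Itga3 had 7.10, 12.2 and 7.22 CPM with sh900, 11.1, 25.3 and 8.57 CPM with sh902 and 3.01, 5.45 and 3.80 CPM with shNT. All 6 hairpin libraries lay above all 3 shNT libraries. Its log2 fold change was 1.44 ± 0.22 (SE, adjusted p = 0.00910), and an exact permutation test, two-sided, of the 6 hairpin and 3 shNT libraries gave p = 0.0238, where 84 splits allow no less than 0.0119. Against the shNT library of the same label, the hairpin libraries held 1.90 to 4.64 times the Itga3 level in CPM. Itgb1, the common partner of all 3 laminin-binding α subunits, had 940.2, 1038 and 600.5 CPM with sh900, 1079, 1112 and 768 CPM with sh902 and 584, 795 and 501 CPM with shNT. Each hairpin library was above the shNT library of its own label, but the groups overlapped, since the 3 September libraries were the lowest of each group. The log2 fold change of Itgb1 was 0.56 ± 0.14 (SE, adjusted p = 0.0380), and the exact permutation p was 0.107. The Itga3 call was lost when the undated shNT library was left out (adjusted p = 0.0598). The Itgb1 call was lost without the undated sh900, the 30 August sh900, the undated sh902, the 3 September sh902, the undated shNT or the 3 September shNT library, with an adjusted p of up to 0.190.

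Itga6, the α subunit best known from laminin contact of neural stem cells, had 222, 269.6 and 266 CPM with sh900, 215, 98.8 and 268 CPM with sh902 and 259.8, 289 and 203 CPM with shNT. The groups overlapped, and 1 library, sh902 of 30 August, lay far below the other 8. Itga6 differed by -0.19 ± 0.30 (SE, adjusted p = 0.726) on the log2 scale. Itga7, a laminin receptor α subunit known from muscle, had 119, 162 and 129 CPM with sh900, 145, 178 and 82.2 CPM with sh902 and 181, 119 and 158 CPM with shNT. Hairpin libraries were above shNT at 30 August and below it at the other labels, and the log2 fold change was -0.20 ± 0.23 (SE, adjusted p = 0.619). Itgb4, which pairs with Itga6 in the hemidesmosomes of epithelia, had 0.309, 0.359 and 0.386 CPM with sh900, 0.219, 0.514 and 0.517 CPM with sh902 and 0.298, 0.263 and 0.310 CPM with shNT, or 7 to 12 counts in each library. It reached the filter's 0.376 CPM in 3 hairpin libraries and in 0 of the shNT libraries, and its log2 fold change was 0.37 ± 0.41 (SE, adjusted p = 0.606). An adjusted p above the threshold does not show that the levels were equal.

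**Figure D1:**
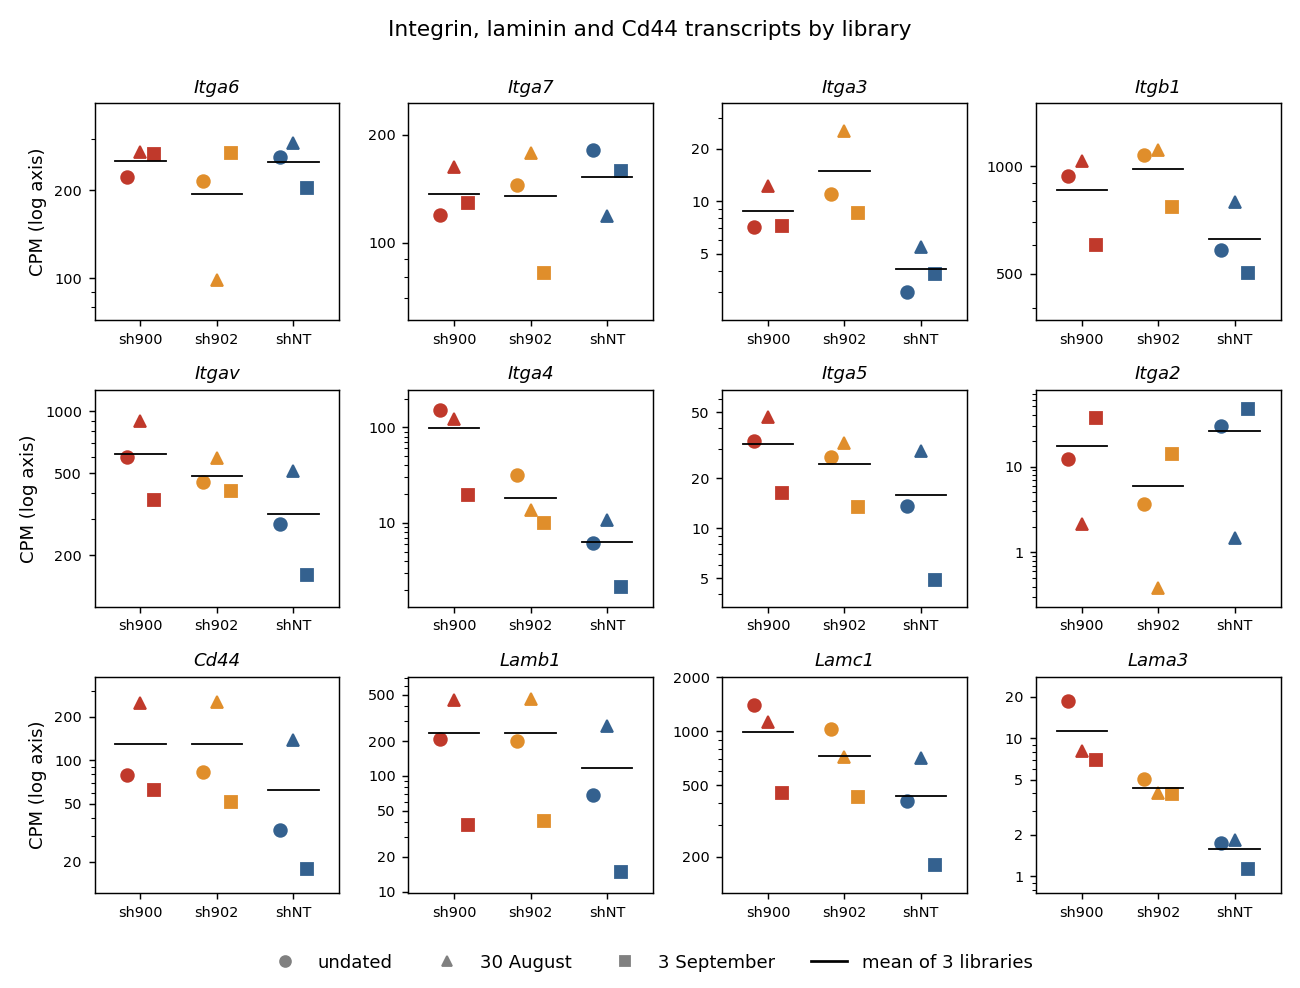
Transcript level of 12 integrin, laminin and Cd44 genes in each library, in CPM on a log axis, by group; the symbol gives the date label and the line the mean of 3 libraries. Itga3 and Lama3 were higher in all 6 hairpin libraries than in all 3 shNT libraries, whereas for Cd44 and Lamb1 the groups overlapped and hairpin libraries exceeded the shNT library with the same symbol.

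Per kilobase of exon, Itgb1 was the most abundant integrin transcript, with a mean CPM per kb of 211 ± 56.3 with sh900, 242 ± 46.6 with sh902 and 154 ± 37.1 with shNT (SD, n = 3 each). Itgb8 and Itgb5, both partners of Itgav, came next among integrins, and Itgav, Itga6 and Itga7 were the 3 highest α subunits over the 9 libraries. Itga6 averaged 28.0 ± 2.96 with sh900, 21.5 ± 9.60 with sh902 and 27.8 ± 4.84 with shNT CPM per kb, and Itga7 averaged 16.9 ± 2.80 with sh900, 16.7 ± 6.01 with sh902 and 18.9 ± 3.88 with shNT. Itga3, the laminin receptor α subunit that rose, was far lower at 1.55 ± 0.514 with sh900, 2.62 ± 1.58 with sh902 and 0.716 ± 0.217 with shNT CPM per kb. Itgav, which binds vitronectin and other ligands with the RGD motif, averaged 57.7 ± 24.3 with sh900, 45.1 ± 8.72 with sh902 and 29.5 ± 16.6 with shNT CPM per kb.

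The make-up of the integrin α level was compared between hairpin and control libraries of each label. Itga3, Itga6 and Itga7 together made up 32.3%, 28.7% and 49.2% of the summed integrin α level per kb with sh900 and 43.6%, 34.3% and 47.2% with sh902, against 58.9%, 44.3% and 63.6% with shNT. The share was below that of the shNT library of the same label in 6 of 6 hairpin libraries. This is a description with no test, and a share falls when other α subunits rise. Itgav alone held 44.1, 45.8 and 36.5% with sh900, 42.1, 50.4 and 43.6% with sh902 and 29.9, 44.1 and 22.1% with shNT. Itga6 held 22.4% ± 7.73 with sh900, 22.6% ± 11.96 with sh902 and 32.02% ± 1.998 with shNT (SD, n = 3 each). With the longest transcript in place of the exon union, the shNT mean for Itga6 was 37.9%, in place of 32.02%.

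**Figure D2:**
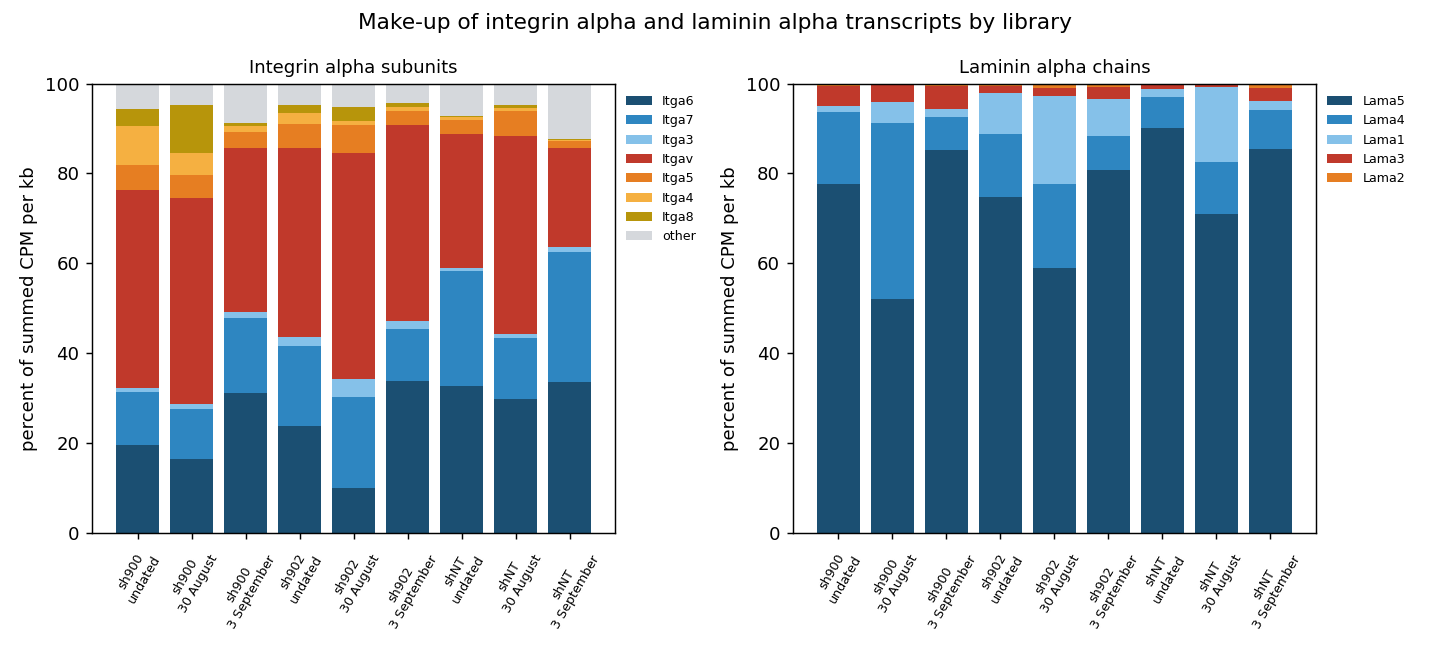
Share of the summed level per kilobase that each integrin α subunit (left) and each laminin α chain (right) held in each library, in percent of CPM per kb. Laminin receptor subunits (blue) made up 28.7% to 49.2% of the integrin α level in hairpin libraries and 44.3% to 63.6% in shNT libraries, and with this length Lama5 was the main laminin α chain in all 9.

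Compared as groups, 2 of the 5 laminin receptor subunits rose and 0 fell, with a median log2 fold change of 0.37. Of the other 20 integrin subunits 14 were tested, of which 5 rose and 1 fell, with a median of 0.64. Over all genes tested 6.08% rose and 5.59% fell, and the median was -0.02. The laminin receptor median minus that of the other integrins was -0.27 with the block and -0.21 without it. From the ratios within a label it was -0.86 for the undated libraries, 0.05 for 30 August and -0.28 for 3 September (SD 0.46, n = 3 labels). The order of the 2 groups turned at 30 August. The laminin receptor median is the value of Itgb4, which had 7 to 12 counts per library and was tested through its level in hairpin libraries. Without Itgb4, left out after its values were seen, the difference was -0.46 with the block and -0.39 without it. No order of the 2 groups is read from these medians. With Itgb1 left out of the laminin receptors, the difference without the block was -0.48.

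Of the 5 other integrins that rose, 3 are α subunits that bind fibronectin or other ligands with the RGD motif. Among the 4 α subunits of that class, Itgav, Itga5 and Itga8 rose, and the platelet subunit Itga2b was not called (0.51 ± 0.28 (SE, adjusted p = 0.268)). Itgav had 596, 893 and 372 CPM with sh900, 452, 590.3 and 412 CPM with sh902 and 282, 510.0 and 159.7 CPM with shNT, a log2 fold change of 0.91 ± 0.19 (SE, adjusted p = 0.0245). Itga5, the α subunit of the fibronectin receptor, had 33.7, 46.8 and 16.2 CPM with sh900, 26.8, 32.9 and 13.4 CPM with sh902 and 13.7, 29.2 and 4.89 CPM with shNT. In both genes each hairpin library was above the shNT library of its label, and the groups overlapped, for Itgav through shNT of 30 August alone and for Itga5 also because sh902 of 3 September lay below the undated shNT library. For Itga5 the log2 fold change was 1.03 ± 0.21 (SE, adjusted p = 0.0208). Itga8, which binds nephronectin and other RGD proteins with Itgb1, had 36.7, 143 and 3.32 CPM with sh900, 14.4, 25.5 and 5.77 CPM with sh902 and 1.82, 4.96 and 1.28 CPM with shNT. The sh900 library of 30 August was the highest of all 9 and the 3 September libraries were the lowest of each group. Itga8 had a log2 fold change of 3.22 ± 0.73 (SE, adjusted p = 0.0465). Each of these calls was lost in several fits that left out 1 library. The Itgav call was lost without the undated sh900, the 30 August sh900, the undated sh902, the undated shNT or the 3 September shNT library (adjusted p up to 0.129). Itga5 was not called without the undated sh900, the 30 August sh900, the undated sh902, the 3 September sh902, the undated shNT or the 3 September shNT library (up to 0.133), nor Itga8 without the undated sh900, the 30 August sh900, the undated sh902, the 30 August sh902, the 3 September sh902, the undated shNT or the 30 August shNT library (up to 0.232).

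Itga4, which binds fibronectin and the vascular adhesion molecule Vcam1, rose. It had 152, 122 and 19.4 CPM with sh900, 31.5, 13.6 and 9.99 CPM with sh902 and 6.18, 10.8 and 2.13 CPM with shNT. Every hairpin library was above its own shNT library, but sh902 of 3 September lay below shNT of 30 August. Its log2 fold change was 2.74 ± 0.49 (SE, adjusted p = 0.0230) for the mean of both hairpins, 3.82 ± 0.55 (SE, adjusted p = 0.0161) for sh900 and 1.65 ± 0.52 (SE, adjusted p = 0.0998) for sh902. The mean call was lost without the undated sh900, the 30 August sh900, the undated sh902 or the undated shNT library (adjusted p up to 0.121). Itga9, which binds tenascin C, had a log2 fold change of 0.74 ± 0.35 (SE, adjusted p = 0.206) and was not called.

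Among collagen receptors the direction was mixed. Itga2, the α subunit of a collagen receptor that also binds laminin in some cells, fell. It had 12.2, 2.15 and 37.1 CPM with sh900, 3.63, 0.385 and 13.8 CPM with sh902 and 29.7, 1.47 and 46.8 CPM with shNT. The groups overlapped fully, because the level differed more between labels than between hairpins: all 3 libraries of 30 August were at or below 2.15 CPM, and the sh900 library of that label was above its shNT library. For Itga2 the log2 fold change was -1.34 ± 0.29 (SE, adjusted p = 0.0278), with -0.40 ± 0.35 (SE, adjusted p = 0.504) for sh900 and -2.28 ± 0.37 (SE, adjusted p = 0.0134) for sh902. The mean call was lost without the undated sh900, the 3 September sh900, the undated sh902, the undated shNT or the 3 September shNT library (adjusted p up to 0.148). Itga1 stood at 0.69 ± 0.21 (SE, adjusted p = 0.0701) for the mean and rose with sh900 alone (1.23 ± 0.24 (SE, adjusted p = 0.0223)). Itga10 was not called (0.59 ± 0.33 (SE, adjusted p = 0.281)).

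Of the remaining β subunits, Itgb2, the partner of the leukocyte α subunits, rose and was very low throughout. It had 0.679, 1.90 and 0.386 CPM with sh900, 0.875, 3.55 and 0.775 CPM with sh902 and 0.149, 0.789 and 0.0776 CPM with shNT, which is 2 to 83 counts per library. Hairpin libraries exceeded the shNT library of their label by 2.41 to 9.99 times in 6 of 6, and the log2 fold change was 2.12 ± 0.36 (SE, adjusted p = 0.0125). Only 1 of 3 shNT libraries reached the filter's 0.376 CPM, so the gene was tested because of its level in the hairpin libraries. The call was lost without the undated shNT library (adjusted p = 0.0793). The leukocyte partners Itgal, Itgam and Itgax did not pass the filter, with a highest value of 0.313 CPM. Itgae, a subunit carried by lymphocytes that binds E-cadherin, was not called (-0.03 ± 0.50 (SE, adjusted p = 0.976)). Of 10 microglia and macrophage markers, Tyrobp was at 0 in all libraries, and 2, Cd68 and P2ry12, exceeded 1 CPM in any library. The 10 markers summed to 1.85 to 4.82 CPM over the 6 hairpin libraries and 2.14 to 2.94 CPM over the 3 shNT libraries, and Cd68, a lysosomal protein gene of macrophages, rose at 1.04 ± 0.25 (SE, adjusted p = 0.0360). Itgb8, which with Itgav activates latent TGF-β in the neuroepithelium, averaged 534 ± 302 CPM with sh900, 687 ± 142 CPM with sh902 and 877 ± 268 CPM with shNT (SD, n = 3 each) and was not called (-0.56 ± 0.23 (SE, adjusted p = 0.156)). Itgb5 (0.14 ± 0.18 (SE, adjusted p = 0.654)) and Itgb3 (0.19 ± 0.29 (SE, adjusted p = 0.714)) were not called.

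**Figure D3:**
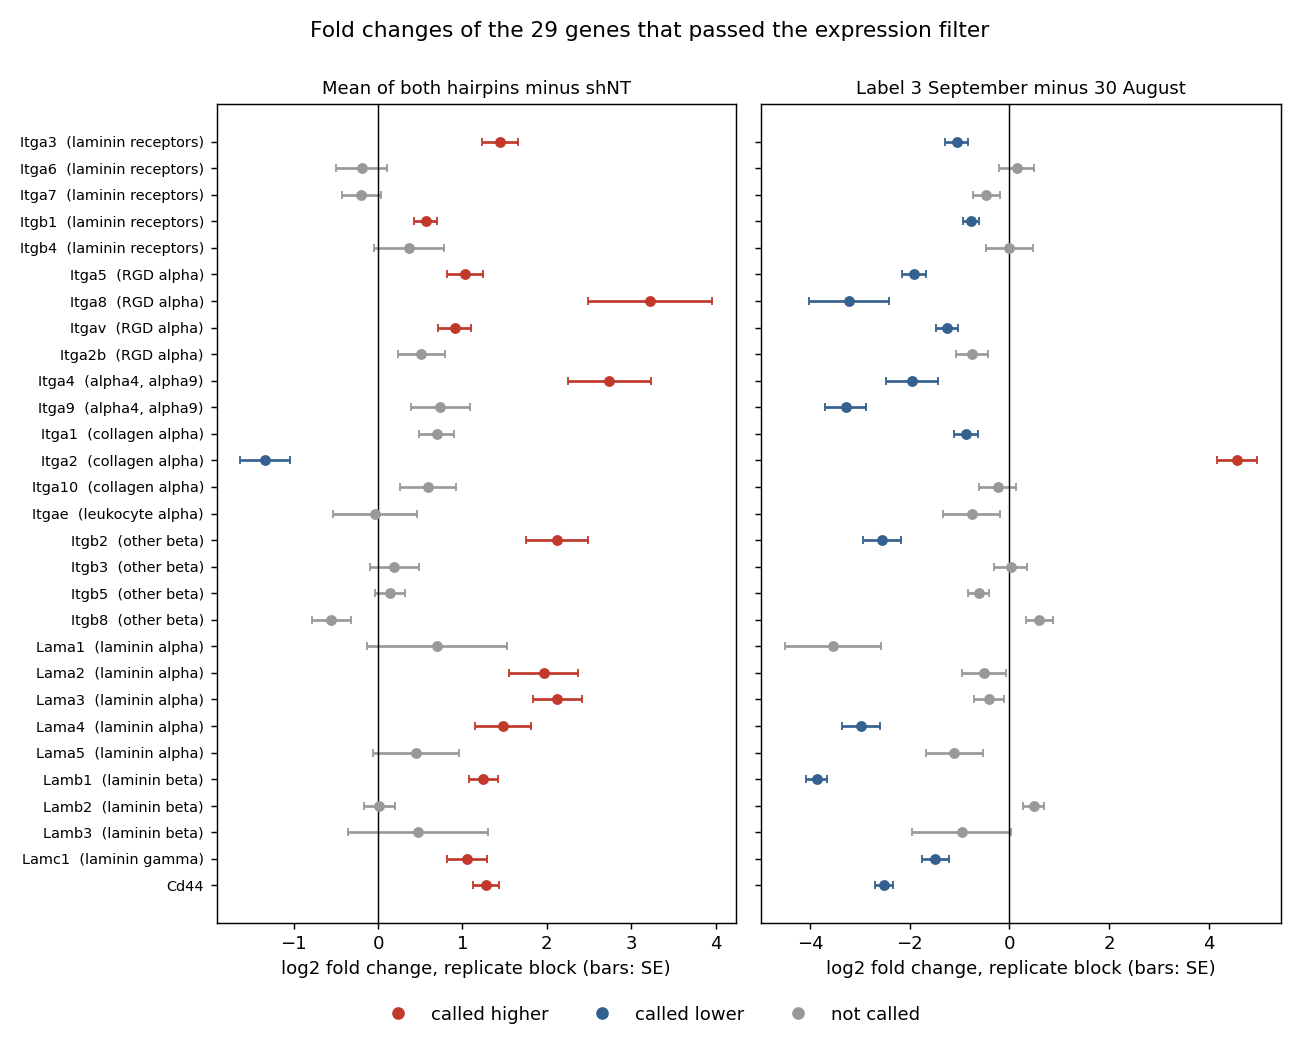
Log2 fold changes, with SE as bars, of the 29 genes tested in edgeR's fit with the replicate block, for the mean of both hairpins minus shNT (left) and for the 3 September label minus the 30 August label (right). On the left 13 genes were called higher and Itga2 lower, and on the right 13 were called lower and Itga2 higher.

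Of the laminin chains, 5 of the 9 tested rose, where 6.08% of all genes did, and 0 fell, where 5.59% did. Their median log2 fold change was 1.05 against -0.02 over all genes. Lamc1, the γ chain shared by most laminins, had 1397, 1126 and 454 CPM with sh900, 1038, 721 and 429 CPM with sh902 and 412, 711 and 180.0 CPM with shNT. The 3 September libraries were the lowest of each group, and sh902 of 30 August was level with its shNT library. This gave Lamc1 a log2 fold change of 1.05 ± 0.24 (SE, adjusted p = 0.0309). Lamb1, a β chain of embryonic and vascular laminins, had 209.7, 449.7 and 38.0 CPM with sh900, 200.1, 463 and 41.2 CPM with sh902 and 68.0, 269.8 and 14.9 CPM with shNT. Levels differed by label more than by hairpin, so the groups overlapped, while each hairpin library held 1.67 to 3.08 times the transcripts of its own shNT library. Lamb1 had a log2 fold change of 1.25 ± 0.17 (SE, adjusted p = 0.00731), and its call held in all 9 fits that left out 1 library (adjusted p up to 0.0486). Without the label in the fit its log2 fold change was 1.02 ± 1.10 (SE, adjusted p = 0.651). The Lamc1 call held in 2 of 9 and was lost without the undated sh900, the 30 August sh900, the 3 September sh900, the undated sh902, the 3 September sh902, the undated shNT or the 3 September shNT library (up to 0.167).

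Lama5, the chain of the laminins that pluripotent stem cells bind through Itga6, was the main α chain, with 71.6% ± 17.4 with sh900, 71.5% ± 11.3 with sh902 and 82.2% ± 9.99 with shNT of the laminin α level per kb (SD, n = 3 each). With the longest transcript in place of the exon union, its mean was 61.0% with sh900, 63.0% with sh902 and 75.2% with shNT, and in the sh900 library of 30 August Lama4 (56.2%) exceeded Lama5 (37.2%). Lama5 had 347, 123 and 121 CPM with sh900, 242, 136 and 126 CPM with sh902 and 171, 242 and 34.9 CPM with shNT. Both hairpin libraries were above shNT at the undated and 3 September labels and below it at 30 August, and Lama5 was not called (0.45 ± 0.51 (SE, adjusted p = 0.616)). Lama4, the α chain of vascular laminin, rose. It had 75.6, 98.8 and 11.3 CPM with sh900, 48.7, 45.7 and 12.4 CPM with sh902 and 13.6, 42.2 and 3.76 CPM with shNT, with overlapping groups. Its log2 fold change was 1.48 ± 0.34 (SE, adjusted p = 0.0347), and the call was lost without the undated sh900, the 30 August sh900, the 3 September sh900, the undated sh902, the 3 September sh902, the undated shNT or the 3 September shNT library (adjusted p up to 0.162). Lama1, an early α chain of the embryo, ranged from 0.737 to 48.5 CPM and was not called (0.70 ± 0.83 (SE, adjusted p = 0.633)).

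The remaining α chains rose at low levels. Lama3, an α chain of epithelial basement membranes, had 18.6, 8.08 and 7.02 CPM with sh900, 5.06, 4.03 and 3.96 CPM with sh902 and 1.75, 1.84 and 1.13 CPM with shNT. Every hairpin library was above every shNT library, and sh900 was above sh902 at each label. Its log2 fold change was 2.13 ± 0.29 (SE, adjusted p = 0.00731), and the exact permutation p was 0.0119, the smallest that 84 splits allow. Lama2, the α chain of muscle and nerve laminin, had 2.84, 1.29 and 0.888 CPM with sh900, 2.44, 3.08 and 1.72 CPM with sh902 and 0.521, 0.413 and 0.543 CPM with shNT, or 11 to 92 counts per library. All hairpin libraries again lay above all shNT libraries, with a log2 fold change of 1.96 ± 0.41 (SE, adjusted p = 0.0227) and an exact permutation p of 0.0119. Without the undated shNT library Lama3 stood just past the threshold (adjusted p = 0.0520), and Lama2 was not called without the undated sh900, the 3 September sh902 or the undated shNT library (up to 0.138). Complete separation of 6 from 3 libraries in the upward direction was seen in 3 of the 29 genes, Itga3, Lama2 and Lama3, against 4.15% of all genes tested. In the downward direction it was seen in 0 of 29 and in 2.62% of all. By the exact permutation test, 3 of 29 had p under 0.05, near the 12.1% of all genes.

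Lamb3, a β chain of epithelial laminin, had 0 to 14 counts per library and was not called (0.47 ± 0.83 (SE, adjusted p = 0.759)). Lamb2 was not called (0.02 ± 0.19 (SE, adjusted p = 0.972)), and with Lamb1 it shared the β level in a way that followed the label: Lamb1 held 48.6, 84.5 and 18.04% with sh900, 50.2, 73.1 and 16.1% with sh902 and 20.5, 69.7 and 8.67% with shNT.

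Cd44, the cell-surface receptor for hyaluronan carried by neural progenitors and astrocyte precursors, rose. It had 79.2, 249 and 62.9 CPM with sh900, 82.7, 255 and 51.4 CPM with sh902 and 32.9, 137 and 17.9 CPM with shNT. The 30 August libraries were the highest and the 3 September libraries the lowest of each group, and within each label both hairpin libraries were above shNT, by 1.81 to 3.52 times. The 2 hairpins lay close to each other at each label. Its log2 fold change was 1.28 ± 0.15 (SE, adjusted p = 0.00519) for the mean, 1.35 ± 0.17 (SE, adjusted p = 0.00733) for sh900 and 1.21 ± 0.17 (SE, adjusted p = 0.00915) for sh902. Without the label in the fit the log2 fold change was 1.07 ± 0.84 (SE, adjusted p = 0.525). The mean call held in all 9 fits with 1 library left out (adjusted p up to 0.0474). Cd44 is spliced into many forms, which counts per gene do not tell apart.

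**Figure D4:**
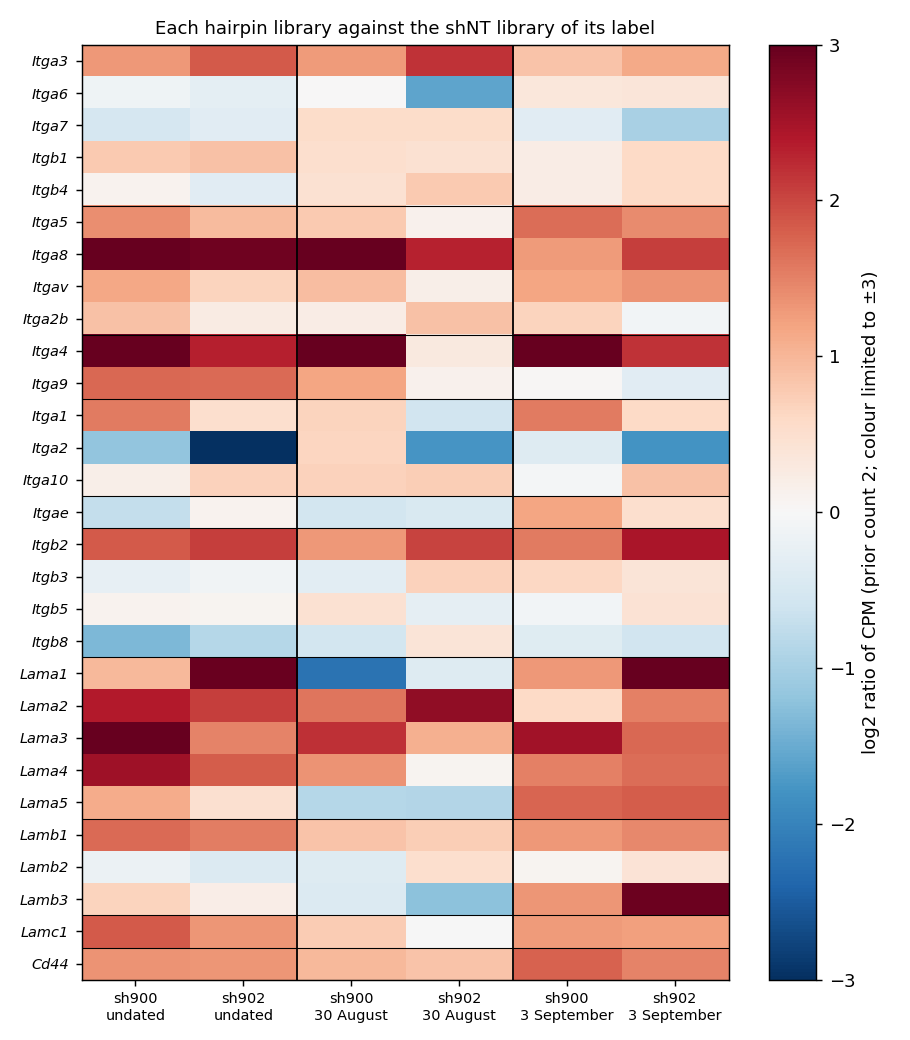
Log2 ratio of CPM (prior count of 2) of each hairpin library to the shNT library with the same label, for the 29 genes tested, grouped by class; colours stop at ±3. Of the 29 rows, 12 were above 0 in all 6 columns, and Lama5, Lama1, Itga7, Itgae and Lamb3 differed in sign between the 30 August and 3 September columns.

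Taking the undated libraries as 1 label, a ratio above the same-label shNT library in 6 of 6 hairpin libraries was found for 12 of the 29 genes, against 12.9% of all genes tested. These were the genes that rose, with the exception of Lamc1. A ratio below it in 6 of 6 was found for 0 of 29 and for 11.9% of all.

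Each hairpin was also compared with shNT on its own, and both comparisons used the same 3 shNT libraries. With the block, sh900 called 12 of the 29 higher, where 5.39% of all genes were called higher, and 0 lower, where 3.45% were. With sh902, 7 were called higher (5.12% of all genes) and 1, Itga2, lower (5.39% of all). Called higher with each hairpin singly were 5 of 29, namely Cd44, Itga3, Itgb2, Lama3 and Lamb1, against 2.5% of all genes (Itgb2, which passed the filter through its hairpin libraries, counts in these and in the 13 that rose), and called lower with each were 0 of 29, against 1.51%. Many of these single calls were lost with 1 library left out. With sh900, Cd44 and Lama3 held in 9 of 9 fits, Lamb1 in 6, Itga3 in 4 and Itgb2 in 3. With sh902, Itga3 held in 8, Cd44, Itgb2 and Lamb1 in 6 and Lama3 in 4. Itgav gave 1.07 ± 0.22 (SE, adjusted p = 0.0249) with sh900 and 0.74 ± 0.22 (SE, adjusted p = 0.0675) with sh902, and Lamc1 gave 1.27 ± 0.27 (SE, adjusted p = 0.0289) with sh900 and 0.83 ± 0.27 (SE, adjusted p = 0.0857) with sh902. Itgb1 gave 0.49 ± 0.16 (SE, adjusted p = 0.0895) with sh900 and 0.63 ± 0.16 (SE, adjusted p = 0.0411) with sh902.

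In the direct comparison of sh902 with sh900, 0 of 29 were called higher (1.74% of all genes) and 3 lower (2.48% of all). The 3 were Itga1 (-1.07 ± 0.24 (SE, adjusted p = 0.0472)), Itga2 (-1.89 ± 0.37 (SE, adjusted p = 0.0375)) and Lama3 (-1.34 ± 0.30 (SE, adjusted p = 0.0496)). Each of these calls was lost in most fits that left out 1 library: Itga1 held in 1 of 9, Itga2 in 2 and Lama3 in 1 (adjusted p up to 0.280). Itga1 had 42.4, 42.2 and 31.5 CPM with sh900, 22.0, 19.9 and 16.0 CPM with sh902 and 15.4, 28.7 and 10.3 CPM with shNT, so that every sh900 library was above every sh902 library. Itga4, lower with sh902 by a wider margin, was not called (-2.17 ± 0.51 (SE, adjusted p = 0.0740)). Nor was Itga3 (0.59 ± 0.23 (SE, adjusted p = 0.178)), which was higher with sh902 than with sh900 at each label.

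These genes also differed between the date labels. With 3 September set against 30 August in the blocked fit, 13 of the 29 were called lower, where 10.1% of all genes were, and 1, Itga2, higher, where 10.4% were. Lamb1 (-3.86 ± 0.21 (SE, adjusted p = 0.000128)) and Cd44 (-2.52 ± 0.18 (SE, adjusted p = 0.000287)) were lower in all 3 libraries of 3 September than in all 3 of 30 August, and Itga2 was higher in all 3 (4.57 ± 0.40 (SE, adjusted p = 0.000820)). Other genes called lower were Itga9 (-3.29 ± 0.41 (SE, adjusted p = 0.00281)), Lama4 (-2.97 ± 0.39 (SE, adjusted p = 0.00385)) and Itgb2 (-2.56 ± 0.38 (SE, adjusted p = 0.00445)). Itga1, Itga3, Itga4, Itga5, Itga8, Itgav, Itgb1 and Lamc1 completed the 13. Lama2 (-0.50 ± 0.43 (SE, adjusted p = 0.439)), Lama3 (-0.41 ± 0.31 (SE, adjusted p = 0.379)), Itga6 (0.15 ± 0.36 (SE, adjusted p = 0.794)) and Itga7 (-0.47 ± 0.27 (SE, adjusted p = 0.255)) were among those not called.

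Genes that work with these receptors were read from 4 lists, to be set beside the 6.08% of all genes that rose and the 5.59% that fell. Of the 11 tested genes of hyaluronan metabolism and Cd44 linkers, 2 rose and 0 fell, with a median log2 fold change of 0.14. Msn, which encodes moesin, a link between Cd44 and actin, averaged 962 ± 465 CPM with sh900, 845 ± 268 CPM with sh902 and 334 ± 247 CPM with shNT (SD, n = 3 each), and its log2 fold change was 1.62 ± 0.23 (SE, adjusted p = 0.00773). Cemip, whose product takes part in breaking down hyaluronan, averaged 228 ± 271 CPM with sh900, 18.04 ± 10.98 CPM with sh902 and 11.9 ± 16.0 CPM with shNT (SD, n = 3 each). Its log2 fold change was 2.97 ± 0.54 (SE, adjusted p = 0.0252). Singly, Cemip was called with sh900 (adjusted p = 0.0158) and not with sh902 (adjusted p = 0.150). The hyaluronan synthase genes Has1 (-0.77 ± 0.32 (SE, adjusted p = 0.152)), Has2 (-0.29 ± 0.22 (SE, adjusted p = 0.429)) and Has3 (0.03 ± 0.24 (SE, adjusted p = 0.954)) were not called.

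Among 14 tested ligands of integrins and parts of basement membranes, 5 rose and 0 fell, with a median of 0.85. Tnc, which encodes tenascin C, a matrix protein of the neural stem cell niche, averaged 2686 ± 2247 CPM with sh900, 2236 ± 1816 CPM with sh902 and 857 ± 1091 CPM with shNT (SD, n = 3 each), at 1.90 ± 0.32 (SE, adjusted p = 0.0126). Also higher were Ntn4, a netrin that binds laminin (0.85 ± 0.18 (SE, adjusted p = 0.0251)), the thrombospondin gene Thbs2 (1.11 ± 0.26 (SE, adjusted p = 0.0313)) and the perlecan gene Hspg2 (1.20 ± 0.28 (SE, adjusted p = 0.0377)). Ntn4, Thbs2 and Hspg2 were called with sh900 alone but not with sh902 alone (adjusted p = 0.0945, 0.160 and 0.0722). Of the 8 laminin receptors that are not integrins 2 rose and 0 fell, with a median of 0.37. These were the syndecan genes Sdc2 (0.59 ± 0.11 (SE, adjusted p = 0.0159)) and Sdc4 (0.89 ± 0.21 (SE, adjusted p = 0.0369)). Singly, Sdc2 was not called with sh900 (adjusted p = 0.145) and Sdc4 was not called with sh902 (adjusted p = 0.0959).

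Of 24 tested genes of the integrin adhesion complex inside the cell, 2 rose and 1 fell, with a median log2 fold change of 0.23. These counts are near the shares of all genes called, 6.08% higher and 5.59% lower. Those that rose were Actn4, an actin crosslinker (0.92 ± 0.13 (SE, adjusted p = 0.00731)), and Ilk, the integrin-linked kinase (0.38 ± 0.10 (SE, adjusted p = 0.0497)). Ilk was not called with sh900 (adjusted p = 0.0897) or sh902 (adjusted p = 0.0690) alone. Lims2, a partner of Ilk, fell (-3.09 ± 0.51 (SE, adjusted p = 0.0114)). It averaged 1.28 ± 1.87 CPM with sh900, 0.454 ± 0.540 CPM with sh902 and 6.39 ± 7.58 CPM with shNT (SD, n = 3 each), so it was a low transcript throughout. With sh900 alone 5 of the 24 rose, where 5.39% of all genes did: Actn4, Flna, Pxn, Vasp and Vcl, the vinculin gene. With sh902 Actn4 also rose (adjusted p = 0.00952). Flna (adjusted p = 0.601), Pxn (0.937), Vasp (0.865) and Vcl (0.180) were not called with sh902. Vcl averaged 249 ± 96.7 CPM with sh900, 93.9 ± 21.7 CPM with sh902 and 119 ± 37.2 CPM with shNT (SD, n = 3 each).

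Other cell markers moved with the same contrasts. Of all genes tested 6.08% rose and 5.59% fell, and 10.4% were called higher at 3 September against 30 August. Neural stem and radial glial markers were present in every library, summing to 6929 to 12120.0 CPM over the 6 hairpin libraries and 6364 to 7172 CPM over the 3 shNT libraries. Vim alone reached 6853 CPM and made up most of the highest sum. Of the 10, Nes (1.66 ± 0.21 (SE, adjusted p = 0.00628)) and Vim (0.95 ± 0.15 (SE, adjusted p = 0.00975)) rose. Hes5 (-2.09 ± 0.40 (SE, adjusted p = 0.0260)) and Pax6 (-0.76 ± 0.18 (SE, adjusted p = 0.0319)) fell. Among those not called, Sox9 (-0.56), Msi1 (-0.52), Slc1a3 (-0.44) and Sox2 (-0.34) had log2 fold changes below 0, and Hes1 (0.88) and Fabp7 (0.05) above 0. Of 7 astrocyte markers 2 fell and 0 rose, and their sums were 1179, 711 and 4032 CPM with sh900, 1372, 780.1 and 2960.0 CPM with sh902 and 3443, 787 and 6790.0 CPM with shNT. Of 7 tested neuron markers 5 fell, with sums of 479.7 to 1158 CPM over the 6 hairpin libraries and 683 to 1982 CPM over the 3 shNT libraries. Of 7 tested oligodendrocyte lineage markers 4 fell, with sums of 1274 to 2804 CPM over the 6 hairpin libraries and 1958 to 2913 CPM over the 3 shNT libraries. At 3 September against 30 August, 6 of 7 astrocyte, 6 of 7 neuron and 4 of 7 oligodendrocyte lineage markers were called higher. Of 8 markers of dividing cells, 0 were called in either contrast, with sums of 496 to 1357 CPM over the 6 hairpin libraries and 159 to 2267 CPM over the 3 shNT libraries. The part of these cell states in the integrin, laminin and Cd44 results was not tested.

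Cells of the vessel wall also carry laminins, and their markers were summed. The 7 endothelial markers summed to 2.91 to 4.72 CPM over the 6 hairpin libraries and 5.15 to 9.62 CPM over the 3 shNT libraries, Cdh5 and Cldn5 did not exceed 0.281 CPM in any library, and of the 3 tested Kdr fell (-1.21 ± 0.29 (SE, adjusted p = 0.0352)). The 9 markers of mural cells and fibroblasts summed to 159, 35.3 and 152 CPM with sh900, 67.5, 34.6 and 49.8 CPM with sh902 and 17.97, 57.2 and 25.9 CPM with shNT. Of the 8 tested, 5 were above 0, with a median log2 fold change of 0.32, 0 rose and Pdgfrb fell (-3.37 ± 0.77 (SE, adjusted p = 0.0309)). Pdgfrb was low, with 0.0617, 0.0718 and 0.463 CPM with sh900, 0, 0.0428 and 0.302 CPM with sh902 and 0.856, 0 and 4.62 CPM with shNT. It was not called with sh900 (adjusted p = 0.102) or sh902 (adjusted p = 0.0503) alone. Kcnj8 did not exceed 0.155 CPM. Acta2, a smooth muscle actin gene that other cells also express, reached 142 CPM, made up most of the highest sum and was not called (1.51 ± 0.96 (SE, adjusted p = 0.354)). Tagln, a smooth muscle gene, had 11.7, 1.04 and 26.1 CPM with sh900, 11.5, 1.63 and 11.98 CPM with sh902 and 2.90, 2.56 and 3.69 CPM with shNT and was not called (1.08 ± 0.70 (SE, adjusted p = 0.359)). At the undated and 3 September labels the sum was higher in both hairpin libraries than in shNT, as the Lama4 level was. At 30 August the sum was lower in both hairpin libraries than in shNT. Lama4 at that label was at 2.34 times its shNT level with sh900 and at 1.08 times with sh902. The part of these markers in the laminin results was not tested.

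The count of genes that rose or fell depended on which libraries were in the blocked fit, here and over all genes. Of the 14 calls for the mean of both hairpins, Cd44 and Lamb1 held in all 9 fits that left out 1 library, and Itga3, Itgb2 and Lama3 in 8. All of these fits held the block. Without it neither Cd44 nor Lamb1 was called, and DESeq2 gave adjusted p values of 0.424 and 0.642. The exact permutation p was 0.202 for Cd44 and 0.345 for Lamb1. With the block, of the undated libraries, dropping shNT left 2 of the 29 called (1.42% of all genes), dropping sh900 left 5 (3.59%) and dropping sh902 left 6 (3.54%). Of those of 30 August, dropping sh900 left 7 (5.48%), dropping sh902 gave 15 (13.6%) and dropping shNT gave 16 (19.9%). Of those of 3 September, dropping sh900 left 11 (7.89%), dropping sh902 left 8 (4.40%) and dropping shNT left 8 (5.34%). With all 9 libraries 11.7% of all genes were called. In the 6 dated libraries alone, with the block, edgeR called 0 of the genes and 1 gene in all. In that fit Cd44 had a log2 fold change of 1.24 (adjusted p = 0.115), Lamb1 of 1.06 (adjusted p = 0.128) and Lama3 of 1.90 (adjusted p = 0.115).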

How the data were processed

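The deposited table holds estimated counts per gene for 9 libraries. The tools named in the submitters' processing notes are RSEM, STAR 2.5.0a, Trimmomatic 0.36, cutadapt and FastQC, on the build GRCm38. Their order, settings and annotation release are not given there, and the labels' protocols do not say that strand was kept, so overlapping or antisense genes and paralogs are uncertain. As deposited, the estimated counts are whole numbers, so a rounding step on reading left them unchanged. Symbols and coordinates came from GENCODE M21 on GRCm38, and 67 of 54232 identifiers had no symbol.

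Tests were run in edgeR 4.0.16 (quasi-likelihood, R 4.3.3, limma 3.58.1) with TMM factors, its default expression filter by group (17602 genes, 99.9% of counts), 3 groups in 1 fit and Benjamini-Hochberg adjustment over all genes tested. The main fit was unblocked; the first alternative took the date label as a replicate block. An SE is the log2 fold change over the root of F. Libraries of different groups share dates in their titles, though the meaning of the date is not given. Deviations from group means correlated at 0.456 to 0.645 within the 3 September label, at 0.402 to 0.627 within 30 August, at 0.0799 to 0.399 between undated ones and at -0.662 to 0.302 between different labels. The block takes the undated libraries as 1 label, though nothing in the titles pairs them. The undated shNT library correlated at 0.145 with undated sh900 and at 0.0799 with undated sh902. With the 3 September libraries it correlated higher, at 0.285 for sh900 and 0.302 for sh902, and with those of 30 August at -0.389 and -0.338. Undated sh900 and sh902 correlated at 0.179 and 0.163 with shNT of 30 August and at -0.308 and -0.246 with shNT of 3 September. Deviations from a group mean cancel out over the libraries of that group, so these correlations are tied to each other. Columns without a date were matched to undated titles of the same hairpin. No 2 libraries of a group were alike (chi-square per degree of freedom at least 56.5).

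Levels per kb divide CPM by the union of exons, and ratios within a label use a prior count of 2. Values in every library were given for the laminin receptor subunits, Cd44 and each other gene called; from other lists up to 4 called genes with the smallest adjusted p were named, and Has1, Has2, Has3, Vcl, Tagln, P2ry12, Acta2 and markers near 0 were added after their values were seen. Of 37 genes that the symbol rule takes, 1 is not reported here and is in none of the counts of these genes. The genes, lists and alternatives were chosen with earlier results of these data known. The scripts were tested on simulated counts. Alternatives were DESeq2 1.42.0, RLE factors, other filters and prior counts, the dated libraries and each library left out. PCR reads are not independent molecules, and genes under about 1 CPM rest on few counts.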

Additional observations from a re-analysis of the deposited data

Results flagged for a closer look

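In 5 of the 29 genes both hairpin libraries lay on one side of the shNT library at 3 September and both on the other side at 30 August. The same was seen in 19.4% of all genes tested, and the difference between the labels was not tested. For Lama5, the main laminin α chain, the mean log2 ratio of hairpin to shNT libraries was 1.78 at 3 September and -0.87 at 30 August, a difference of 2.65. Lama1 stood at 2.53 at 3 September and -1.29 at 30 August, a difference of 3.82. Itga7, a laminin receptor subunit, stood at -0.66 at 3 September and 0.55 at 30 August, a difference of -1.21. Itgae differed by 1.35 and Lamb3 by 2.96, both on at most 16 counts per library.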

How the results depend on the processing

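Counts of the 29 genes called depended on the date label. For the mean of both hairpins against shNT, edgeR called 0 without the label, 14 with the replicate block, 14 with RLE factors and the block, 12 with no low-count filter and the block, and 13 with at least 1 CPM in 3 libraries and the block. DESeq2 called 5, and 15 with the block. For sh900 the counts were 0 without the label, 12 with the block, 12 with RLE factors and the block, 1 with no filter, 11 with no filter and the block, 11 with 1 CPM and the block, 4 by DESeq2 and 13 by DESeq2 with the block. For sh902 they were 0, 8 with the block, 8 with RLE factors and the block, 10 with no filter and the block, 7 with 1 CPM and the block, 3 by DESeq2 and 14 by DESeq2 with the block. For sh902 against sh900 they were 0 without the label and 3 in each of these 4 blocked edgeR fits, 2 by DESeq2 and 4 by DESeq2 with the block. Over all genes, 0% were called for the mean without the label, 11.7% with the block, 11.6% with RLE factors and the block, 7.11% with no filter and the block, 13.8% at 1 CPM with the block, 4.29% by DESeq2 and 17.1% by DESeq2 with the block. For sh900 these shares were 8.85%, 8.85%, 5.78%, 10.5%, 4.47% and 14.7% in that order from the block on, and for sh902 10.5%, 10.5%, 6.33%, 13.0%, 4.82% and 16.1%. For sh902 against sh900 they were 4.22%, 4.37%, 4.01%, 5.21%, 5.88% and 10.1% in the same order. With no filter and no block, 0.152% of all genes were called for sh900. The cause was not tested.

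Leaving out 1 library, with or without the block, gave 0 to 16 for the mean, 0 to 14 for sh900, 0 to 15 for sh902 and 0 to 5 between the hairpins. For 3 September against 30 August, 14 were called, and 8 to 16 with a library left out. Each group held 1 library at each label, so a fit that left out 1 library had none of that group at that label. With the block, such a fit took the label differences to be the same in every group. The receptor medians differed by -0.60 to -6.8e-05 with 1 library left out and by -0.39 at 1 CPM or without Itgb4. The 472 recomputed log2 fold changes of 17 named genes, for the mean of both hairpins, were set against the unblocked fit, which called 0 genes. Against that fit, 325 kept their direction and stayed not called, and 144 kept their direction and were called. The 325 are therefore no measure of how well the blocked calls held. The other 3 changed sign, none past the threshold: Itga6 to 0.055 without sh902 of 30 August and 0.090 without shNT of 30 August, and Itga7 to 0.033 without shNT of 3 September, each with the block. Over the fits with 1 library left out, Itga6 ran from -0.47 to 0.090 and Itga7 from -0.52 to 0.033. Exact permutation called 3 genes under every prior count. Genes under 1 CPM, such as Itgb4 and Lamb3, have too few counts for a firm fold change.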
